A study of Homo sapiens with 8 samples.

Results

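Notch signalling passes a message between touching cells. A ligand of the Jagged or Delta-like family on one cell binds a Notch receptor on its neighbour, proteases cut the receptor, and its intracellular part enters the nucleus, where it joins the DNA-binding protein RBPJ and a coactivator of the Mastermind-like family to switch on targets such as the HES and HEY repressors. N6-methyladenosine (m6A) is a methyl mark on adenosines of mRNA, found mostly near stop codons and in long exons, and YTHDF2 (DF2) is a cytoplasmic reader of the mark that directs bound mRNA to decay. Described here are the m6A peaks of 9 Notch genes: the receptors NOTCH1, NOTCH2 and NOTCH3, the ligands JAG1 and JAG2, the nuclear factors RBPJ and MAML1, and the targets HES1 and HEY1. They were picked by name, as all peaks whose gene column holds one of these symbols. This gave 13 of 15730 peaks in control cells and 14 of 13219 peaks in DF2 siRNA cells, from 8 of the 9 genes.

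The cells were U2OS, a human osteosarcoma line, either control cells or cells given siRNA against DF2. What the control cells received, and whether siRNA 1 and siRNA 2 are different molecules, is not stated in these sources. Cytoplasmic RNA was fragmented and pulled down with an anti-m6A antibody, with 2 input and 2 immunoprecipitated libraries per condition. The data are 1 peak list per condition, tied by the labels to both immunoprecipitates of that condition, so these lists give no value per library, no difference between the lists has a replicate check, and none was tested. Fold enrichment, −log10 values and scores are the authors' own, per peak. They order peaks within a list. A percentile below is the percentage of peaks in the same list with an equal or lower value. A peak shows m6A signal above the caller's limit, not the amount of an mRNA. Library depths are unknown. Of 9 osteoblast lineage genes, 2 had a peak in either list (RUNX2 and COL1A1), and of the 3 mesenchymal genes VIM, FN1 and THY1 none did. Of 12 genes typical of other cell types, 3 had one in control and 2 in DF2 siRNA. They were the epithelial gene KRT8 and the endothelial gene CDH5 in both lists, and the endothelial gene PECAM1 in control only, with 5 peaks. The share over all genes, with or without a peak, was not worked out, so these counts only describe the named genes.

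Every Notch gene with a peak had one in both conditions. The 8 genes were NOTCH1, NOTCH2, JAG1, JAG2, RBPJ, MAML1, HES1 and HEY1. Over all genes of the control list, 79.7% (95% exact binomial interval 78.9 to 80.5%, counting error only) also had a peak in the DF2 siRNA list. In the other direction, 92.9% (92.4 to 93.5%) of all genes of the DF2 siRNA list also had a peak in the control list. All 13 control peaks of the Notch genes shared exonic bases with a DF2 siRNA peak, against 71.9% of all control peaks. Of the 14 DF2 siRNA peaks, 13 lay on a control peak, against 87.5% of all DF2 siRNA peaks. The one without a counterpart was a weak peak at the 5′ end of MAML1. NOTCH3 had no peak in either list, and no peak of any gene name lay within its RefSeq span on chromosome 19. Whether NOTCH3 mRNA was present in these cells was not analysed here, so the lack of a peak says nothing of how its mRNA is marked.

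Most of the Notch peaks ranked high in their lists. In control, 11 of 13 had a fold enrichment above the list median of 20.8, and 12 of 13 a score above the median of 143. In DF2 siRNA, 11 of 14 were above the median fold enrichment of 17.7 and 12 of 14 above the median score of 74. The best peak per gene over the 8 genes had a median value of 72.2 in the control list and 63.3 in the DF2 siRNA list. Over all genes of each list, that median was 28.9 and 23.0. The members were chosen with earlier results of these data known, so these figures describe them and call nothing particular to them.

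**Figure D1:**
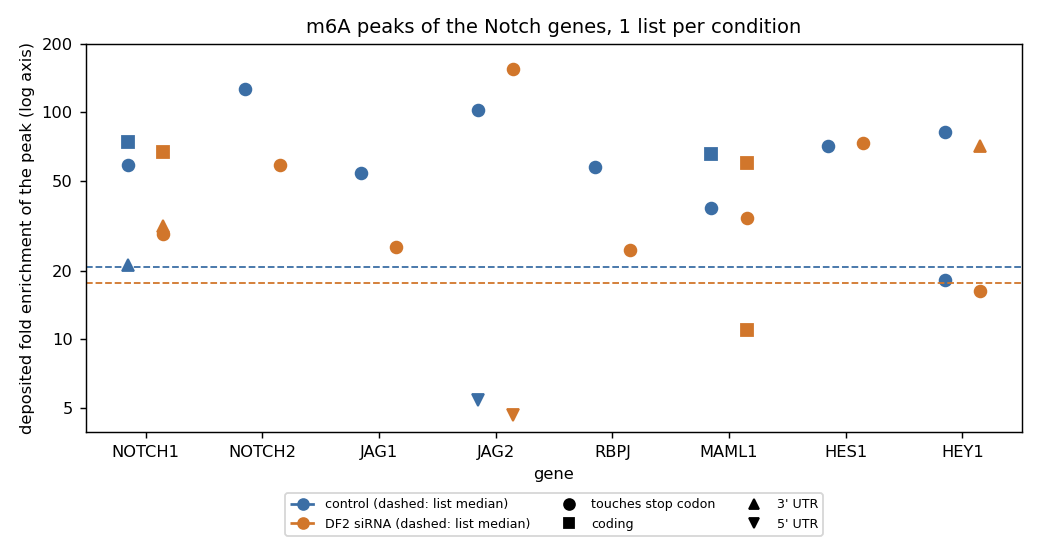
Deposited fold enrichment (log axis) of each m6A peak of the 8 Notch genes with peaks, in the control list (blue) and the DF2 siRNA list (orange), with marker shapes for the feature label and dashed lines at the list medians of 20.8 and 17.7. NOTCH2 has the highest control value (127) and JAG2 the highest DF2 siRNA value (155), and the 5′ UTR peak of JAG2 is the lowest in both.

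NOTCH1, a receptor, carried 3 peaks in each list, and all 3 had the same first and last base in both. They lay one after another at the 3′ end of the gene on chromosome 9 (hg38, minus strand). The first, labelled coding, ran from 136496524 to 136497523, and its 1000 nt were unbroken by an intron. It had the highest fold enrichment of the 3 in both lists, 73.8 in control (percentile 89.7) and 66.8 in DF2 siRNA (percentile 91.9). The second, over the stop codon, ran from 136495724 to 136496323 and was listed at 58.9 and 29.0. The third, in the 3′ UTR, ran from 136494724 to 136495323 and was listed at 21.2 and 31.5. So within control the stop codon peak ranked above the 3′ UTR peak, at percentiles 84.1 and 50.6. Within DF2 siRNA their order was the other way, at 69.1 and 72.1. The scores gave the same pair of orders, 525 and 252 in control and 110 and 154 in DF2 siRNA. The −log10 values did not. By them the stop codon peak was the higher in both lists, at 16.1 and 4.56 in control and 7.96 and 7.86 in DF2 siRNA. From the last RefSeq base of NOTCH1, the 3 peaks spanned distances of 291 to 3090 nt. Only 12.6% of genes in the control list and 11.9% in the DF2 siRNA list had 3 peaks or more.

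NOTCH2, a related receptor, had a single wide peak over the stop codon in each list. In control it ran from 119914357 to 119916156 on chromosome 1 (minus strand), 1800 nt without an intron, the widest Notch peak of that list. Its fold enrichment was 127, with 299 control peaks above it, and its score of 7809 stood at percentile 99.9. In DF2 siRNA the peak was 1600 nt wide, with a fold enrichment of 58.4 at percentile 89.3 and a score of 1119 at percentile 97.0. The 5′ boundary was the same, and the control peak reached 200 nt farther at its 3′ side. Among the 8 genes, NOTCH2 was at place 1 by best fold enrichment in the control list and at place 6 in the DF2 siRNA list. By best score it was the highest of the 8 in both lists.

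The ligand genes differed within each list. JAG2 had a strong peak over the stop codon on chromosome 14 (minus strand), from 105141778 to 105143488 in control and from 105141978 to 105143488 in DF2 siRNA. Its fold enrichment was 103 in control (percentile 95.7) and 155 in DF2 siRNA (percentile 99.5), where only 69 peaks of the list were higher. JAG1, the other Jagged ligand, had its single peak over the stop codon on chromosome 20 (minus strand), from 10639218 to 10640844 in control and to 10639817 in DF2 siRNA. Its control fold enrichment was 54.0, the lowest best peak of the 8 genes by that measure. Its DF2 siRNA fold enrichment was 25.6, and only RBPJ was lower there. In control the JAG1 peak held 800 nt in 2 exonic segments of 738 and 62 nt. In DF2 siRNA it held 600 nt in 1 segment.

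JAG2 also had the weakest Notch peak of both lists, a 200 nt peak labelled 5′ UTR at 105168625 to 105168824. In control its fold enrichment was 5.38 (percentile 4.18), with a score of 5. In DF2 siRNA the fold enrichment was 4.63 (percentile 2.50), with a score of 4. The peak began 48 nt before the RefSeq start of JAG2 and reached 151 nt past it. This peak and the 5′ peak of MAML1 reach into the RefSeq windows around gene starts, so the stretches inside those windows are given here (RefSeq, GRCh38.p14, 5′ to 3′). The search was for the usual m6A sequence context, A, G or T, then A or G, then AC, then A, C or T, and capitals mark a match on the transcribed strand.

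JAG2, chr14:105168748-105168777, minus strand: cagtctcgttccGAACTtgttggctgcggt

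MAML1, chr5:179732850-179732871, plus strand: cggccgcggcggtagcgcggaa

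The JAG2 stretch is the part around the only match on the transcribed strand in the 98 nt that peak and window share, and the match began at base 12 of the RefSeq transcript. There were 2 matches on the opposite strand of those 98 nt. Of 35116 RefSeq gene starts, 71.7% had a match on the transcribed strand at the same place, and 91.8% on either strand. The 22 nt of the MAML1 peak that lie in the window held no match on either strand, and 23.5% of gene starts had one there on the transcribed strand and 44.6% on either. Such matches are frequent, and they do not show which base is methylated.

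RBPJ, which binds DNA at Notch targets, had 1 peak over its stop codon on chromosome 4 (plus strand). In control it ran from 26430510 to 26431278, with 600 nt in segments of 13 and 587 nt, a fold enrichment of 57.2 (percentile 83.4) and a score of 1033. In DF2 siRNA it ran from 26430879 to 26431278, with 400 nt in 1 segment, a fold enrichment of 24.8 (percentile 63.4) and a score of 177. RBPJ was thus the lowest of the 8 genes by best fold enrichment in DF2 siRNA, and it ranked 7 in control. By best score it stood above JAG1 (174) in DF2 siRNA, and above NOTCH1, JAG1, HES1 and MAML1 in control.

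MAML1, the coactivator that joins RBPJ and the cut receptor, had the most sequence in peaks, 3000 nt in control and 3400 nt in DF2 siRNA. It carried 2 peaks with identical intervals in both lists on chromosome 5 (plus strand). The coding peak, from 179765348 to 179769055, held 1600 nt in segments of 1394 and 206 nt, and its fold enrichments were 65.7 (control) and 59.9 (DF2 siRNA). The stop codon peak, from 179771094 to 179775144, held 1400 nt in segments of 150 and 1250 nt and was listed at 38.0 and 34.2. In both lists the coding peak was the higher, as in NOTCH1. The DF2 siRNA list had 1 more peak at the 5′ end, from 179732850 to 179733249, labelled 5′ UTR and coding. Its fold enrichment was 11.0 (percentile 26.5), its score 27 and its −log10 value 2.20, where the lowest of that list was 1.30.

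HES1, a repressor and a classical Notch target, had 1 peak of 600 nt over the stop codon on chromosome 3 (plus strand). It was the only Notch peak that was shifted rather than wider in one list. In control it ran from 194138071 to 194138670, and in DF2 siRNA from 194137871 to 194138470, which is 200 nt toward the 5′ end. The peaks shared 400 nt. The fold enrichment was 70.7 in control (percentile 88.8) and 73.5 in DF2 siRNA (percentile 93.5). By best fold enrichment HES1 ranked 5 among the 8 genes in control and 2 in DF2 siRNA. Its scores were 651 (control) and 218 (DF2 siRNA). By best score it was the lowest of the 8 genes in control, and in DF2 siRNA only JAG1 (174) and RBPJ (177) were lower.

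HEY1, a related repressor, had 2 peaks per list on chromosome 8 (minus strand). The stronger, from 79764842 to 79766272 in control and from 79765042 in DF2 siRNA, was listed at 81.6 (percentile 91.8) and 70.9 (percentile 93.0). In control its labels included the stop codon. In DF2 siRNA, where the peak was 200 nt shorter at its 3′ end, they were coding, 5′ UTR and 3′ UTR. The other HEY1 peak, from 79766473 to 79767063 in both lists, held 400 nt in 3 segments and was listed at 18.3 and 16.3, below the list medians. It carried the labels coding, 5′ UTR and stop codon, and labels of several transcripts can meet in one peak. HEY1 ranked 3 of the 8 genes by best fold enrichment in both lists.

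**Figure D2:**
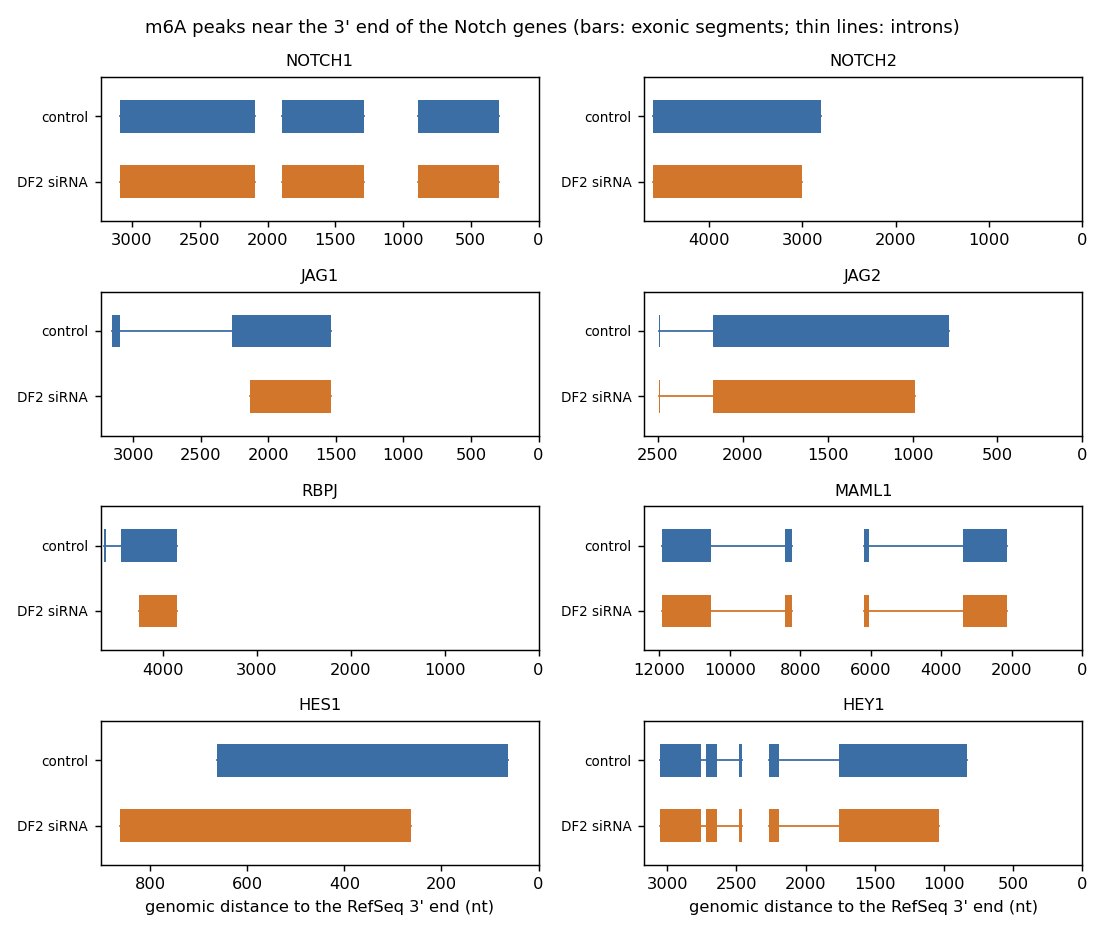
Peaks of the 8 Notch genes near their 3′ ends, with control in blue and DF2 siRNA in orange, thick bars for exonic segments and thin lines for introns. The x axis is the genomic distance in nt to the last RefSeq base of the gene, with the 3′ end at the right, and the 5′ peaks of JAG2 (both lists) and MAML1 (DF2 siRNA) lie outside the plotted range.

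Where the boundaries of a Notch peak differed between the lists, they differed by 200 nt of exonic sequence, the usual step of peak lengths in these files. Of the 13 overlapping pairs, 7 had identical intervals: the 3 of NOTCH1, the 2 of MAML1, the 5′ UTR peak of JAG2 and the weaker peak of HEY1. Over all 9591 pairs that overlapped 1 to 1, 44.3% were identical. The control peak was wider in 5 pairs, those of NOTCH2, JAG1, JAG2, RBPJ and the stronger HEY1 peak. That is 38.5% of the Notch pairs and the same 38.5% of all pairs. None of the Notch pairs was wider in DF2 siRNA, against 15.1% of all pairs. In NOTCH2, JAG2 and HEY1 the additional 200 nt lay at the 3′ side, and in JAG1 and RBPJ at the 5′ side, across an exon junction. Together the pairs shared 10800 nt, which is 90% of the control and 98.2% of the DF2 siRNA sequence in them. Over all pairs these shares were 84.5% and 94.2%.

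**Figure D3:**
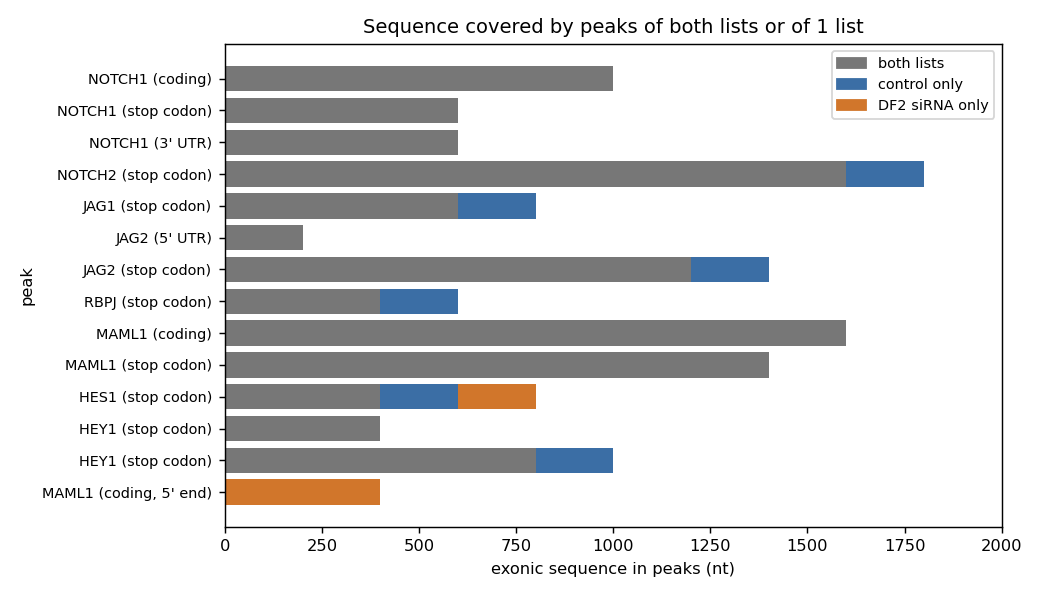
Exonic sequence (nt) of each Notch peak that was covered in both lists (grey), in control only (blue) or in DF2 siRNA only (orange). The NOTCH1 and MAML1 pairs are wholly grey, 5 pairs have 200 nt in control only, and HES1 has 200 nt of each.

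A peak at the stop codon was common to the Notch genes. In control, 9 of 13 peaks touched a stop codon and in DF2 siRNA 8 of 14 did, counting the stop codon first where a peak had several labels. Over all peaks the shares were 42.7% and 43.7%. All 8 genes had such a peak in both lists, against 58.0% of control genes and 59.2% of DF2 siRNA genes. In DF2 siRNA, HEY1 counts only through its weaker peak (16.3), which also carries the labels coding and 5′ UTR. Its stronger peak there had no stop codon label. Wide peaks gather labels, and the Notch peaks had a median of 800 nt in control and 600 nt in DF2 siRNA, against 600 nt over each whole list. NOTCH1, JAG2, MAML1 and HEY1 had 2 or more peaks in both lists. These 4 of 8 genes compare with 38.9% of control genes and 37.4% of DF2 siRNA genes.

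The genes most like a Notch gene were those with as many peaks in both lists, the same label of the best peak, and the nearest percentiles of best fold enrichment. Over these 2 lists, NOTCH2 was closest to TNK1, a kinase gene (fold enrichments of 130 and 58.2). For JAG1 the closest gene was CTGF (54.6 and 25.9), among 1825 candidates, and for HES1 it was CCM2 (71.2 and 74.7). For NOTCH1, with 3 peaks per list and a coding peak on top, it was ARHGEF12 (74.0 and 61.4), among 53 candidates. For JAG2 it was ZNF746 (112 and 163), and for RBPJ it was OGT (59.9 and 25.03). HEY1 and MAML1 had looser partners, IFNAR1 (106 and 65.5) and FYCO1 (56.6 and 61.8).

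Among 58 other genes of the pathway, 34 had a peak in both lists, 1 in control only, 1 in DF2 siRNA only and 22 in neither. The 34 shared genes make up all but 1 of the 35 marked in control, where the share over all genes was 79.7%, and all but 1 of the 35 marked in DF2 siRNA, where it was 92.9%. Over the 35 pathway genes marked in each list, the best peaks had medians of 44.0 (control) and 34.6 (DF2 siRNA). Both were above the list-wide medians of 28.9 and 23.0 for best peaks per gene. The gene in control only was DLL4, a Delta-like ligand, with 1 peak over the stop codon (chromosome 15, 40936331 to 40938319) with a value of 12.6 and a score of 18. The gene in DF2 siRNA only was MIB1, a ubiquitin ligase that acts on Notch ligands, with a 200 nt coding peak at 11.5 and a score of 41. Both stood low in their lists, at percentiles 29.9 and 28.7. The other ligands on the list, DLL1, DLL3, DLK1 and DLK2, and the receptor NOTCH4 had no peak in either list.

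Peaks were found among the proteases and the nuclear factors. Over all genes, 7950 had a peak in both lists. The share this makes of all genes, with or without a peak, was not worked out. The counts per role and over the whole pathway list therefore only describe these genes. Of 9 genes for receptor cleavage, 7 carried peaks in both conditions, and the other 2, NCSTN and PSENEN, in neither. FURIN, which cuts the receptor during its maturation, was the strongest at 124 in control and 156 in DF2 siRNA. Of 6 coactivator genes, 5 had a peak in both lists, with the acetyltransferase EP300 at 113 and 79.2, MAML2 at 109 and 25.4, MAML3 at 95.01 and 69.3 and the acetyltransferase CREBBP at 94.3 and 126. In EP300 and MAML2 the best peaks of the lists had different labels, a stop codon in control and coding in DF2 siRNA. Of 11 corepressor genes, 9 had a peak in both. The highest in control were CTBP2 (141, and 46.7 in DF2 siRNA) and SPEN (133), which represses Notch targets together with RBPJ. In DF2 siRNA they were SPEN (90.4) and NCOR1 (63.0, and 56.7 in control). The 2 SPEN values belong to different peaks on chromosome 1. The best control peak, from 15847864 to 15876699, was listed at 59.7 in DF2 siRNA. The best DF2 siRNA peak, from 15939367 to 15940166, lay on a control peak listed at 104.

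Of 13 genes for ligand ubiquitination and receptor turnover, 7 had a peak in both lists. FBXW7, part of the ubiquitin ligase that targets the cut receptor for degradation, was the strongest, at 116 in control with 5 peaks and 65.6 in DF2 siRNA with 4. Of 5 glycosylation genes, 2 had a peak in both, and they were POFUT1 (88.8 and 87.4), which attaches fucose to the receptor, and POGLUT1 (38.7 and 10.6). The Fringe genes LFNG, MFNG and RFNG had none under their own names. Within the RefSeq span of RFNG lay 1 control peak, listed under GPS1. Likewise, the span of the coactivator gene SNW1 held 1 control peak, listed under SLIRP. The last group held 8 further genes, NRARP and others of the HES and HEY families, listed as targets by name. Whether Notch controls each of them was not tested. Of these 8, 4 had a peak in both lists, HES2 (88.7 and 63.1), HES7 (17.0 and 60.2), HEY2 (30.03 and 26.6) and the feedback inhibitor NRARP (39.7 and 57.1). HES4, HES5, HES6 and HEYL had none. The 4 genes of this group with peaks had their best peak at the stop codon in both lists, as HES1 did. The best peak of HEY1 had a stop codon label in control only.

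**Figure D4:**
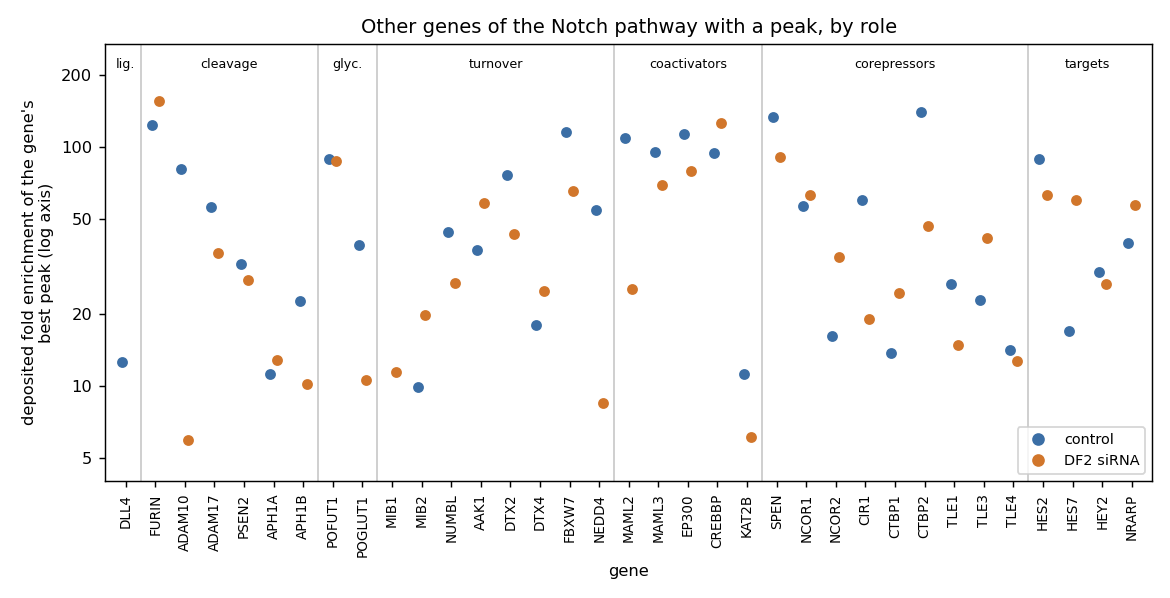
Deposited fold enrichment (log axis) of the best peak of each of 35 other Notch pathway genes with a peak, in control (blue) and DF2 siRNA (orange), grouped by role. DLL4 has a control value only and MIB1 a DF2 siRNA value only, and FURIN (156) has the highest DF2 siRNA value and CTBP2 (141) the highest control value.

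The best control peak was overlapped by a DF2 siRNA peak in 31 of the 35 pathway genes with a control peak, against 77.7% of all control genes. ADAM10, named here after its values were seen, was one of the other 4. ADAM10 makes the ligand-triggered cut in the receptor. In control it had a 3′ UTR peak at 81.1 (chromosome 15, 58591575 to 58592374, percentile 91.7, −log10 value 27.8), a stop codon peak at 17.0 and a 5′ UTR peak at 6.75. In DF2 siRNA only the 5′ UTR peak was listed, at 5.95. The remaining 3 were DLL4, KAT2B (11.2 in control) and TLE1 (26.7 in control). In the other direction, the best DF2 siRNA peak lay on a control peak in 32 of 35 genes, all except MIB1, KAT2B and TLE1, against 90.9% of all DF2 siRNA genes. KAT2B and TLE1 had their best control peak at the stop codon and their best DF2 siRNA peak in the 5′ UTR. ADAM17, the other receptor protease of this family, had its 3′ UTR peak in both lists, at 56.3 and 36.2.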

How the data were processed

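HISAT2 and the build hg38 are named, per the submitters' processing notes. No source used here names the caller, its settings or the annotation. Deposited by the authors was 1 peak list per condition, with a fold enrichment (a ratio), a −log10 value (of a p-value in control, of an FDR in DF2 siRNA, per the file headers) and a score without stated meaning. Block lengths of minus-strand peaks run opposite to their offsets: in deposited order 3918 of 7635 control and 2860 of 6422 DF2 siRNA minus-strand peaks do not end at the peak's end, and reversed all do. They were reversed here. Overlap means at least 1 shared exonic base on the same strand. Coordinates count from 1. Gene names were matched as written, and genes over a whole list were counted by Ensembl gene. Intervals are 95% exact binomial (Clopper-Pearson). Overlap counting was checked on a copy of the control list with part of its peaks moved to an empty chromosome. Each kept peak was found on its own copy with all its bases. Partial overlaps were not checked in this way. Members, lists and alternatives were chosen with earlier results of these data known. Named were all members, pathway genes in 1 list only, the 5 highest pathway genes in control, the 2 nearest genes per member (the nearest is given), and other pathway genes as examples chosen after their values were seen. Python 3.11.15, pandas 2.3.3, numpy 2.4.6, scipy 1.17.1 and matplotlib 3.10.9 were used. Values of 1 pathway gene are not reported here; it is counted but not plotted.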

Additional observations from a re-analysis of the deposited data

How the results depend on the processing

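The 51 recomputed counts comprised 38 within 1.5 times the main count and 13 beyond it. All 8 Notch genes stayed in both lists with equal list lengths, in the upper 50% by fold enrichment or score, and with p or FDR 100 times smaller, and 4 had 2 or more peaks in both. The Notch peaks numbered 11 to 12 in control and 11 to 14 in DF2 siRNA under these limits and with peaks within 200 nt merged. No Notch peak touching a stop codon had that as its 1 label, so the counts were 0 in both lists. The shortest Notch peak held 200 nt, so any peak over a stop codon also takes in neighbouring sequence. This limit could give no other count, and both zeros are among the 13. Overlapped Notch peaks numbered 12 of 12 in control and 12 of 14 in DF2 siRNA with equal list lengths. At a p or FDR 100 times smaller they numbered 11 of 12 in control and 11 of 11 in DF2 siRNA. Under reciprocal overlap of 50%, on either strand and over whole spans they numbered 13 of 13 and 13 of 14. Blocks in deposited order, added after the data were seen, gave the same 13 of 13 and 13 of 14. Pathway genes in both lists numbered 21 in the upper 50% by fold enrichment, 22 by score and 15 with 2 or more peaks per gene. Those in control only then numbered 5, 5 and 2, and 5 with p or FDR 100 times smaller. Those in DF2 siRNA only numbered 5 by fold enrichment, 4 with 2 or more peaks and 2 with p or FDR 100 times smaller. Fewer peaks enter under each limit. No paired analysis was possible because the lists used here hold 1 set of peaks per condition and no value per library. Depth is unknown, so a missing peak was not detectable in that list, not shown to be absent.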

Other observations

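The authors number the peaks of a gene, and within each Notch gene with several peaks these numbers run from the 5′ to the 3′ end. NOTCH1, JAG1, JAG2, RBPJ, HES1 and HEY1 start at 0 in both lists. The single NOTCH2 peak carries number 4 in control and number 3 in DF2 siRNA, and no lower number of NOTCH2 is in either list. A lowest number of 3 or more occurred in 22 of 9971 control genes (0.221%) and 18 of 8556 DF2 siRNA genes (0.21%). MAML1 has the numbers 1 and 2 in control and 0, 1 and 2 in DF2 siRNA, so the number that the 5′ peak holds in DF2 siRNA is the one missing in control. Numbers were missing in 22.7% of control genes and 23.0% of DF2 siRNA genes. No source used here says what a missing number stood for.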
